A study of Homo sapiens with 12 samples.

Results

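RNA was sequenced from HT1376 cells, an established human bladder carcinoma line, and 6 of the 12 libraries of the study were compared here. The 3 libraries of the IFNγ-treated knockout group (HT1376 FOXP3 KO, given 100 ng/mL IFNγ for 48 h) were set against the 3 libraries of the unstimulated control group (HT1376 CT, no IFNγ), and all libraries carrying these group labels were taken. HT1376 CT carried Cas9 with a guide to luciferase, and HT1376 FOXP3 KO carried Cas9 with guides to exon 2 of FOXP3. Each was selected with puromycin and grown from a single cell, so each line is 1 clone. The control is labelled WT in the study, although it went through the same editing, selection and cloning. Both the line and the treatment differ between these groups, and within these 6 libraries the FOXP3 edit, the clone and IFNγ cannot be told apart. The question put to the data was which genes IFNγ brought, in the knockout line, to the level of the unstimulated control, above it, or not up to it. Nothing says that the 3 libraries of a group came from separate cultures, so the p-values measure the spread between libraries, which may be technical. Bulk RNA also cannot tell fewer cells with a transcript from less transcript per cell.

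Total counts ran from 12705778 to 39270042 in HT1376 CT (median 17504104) and from 9054262 to 30680995 in treated HT1376 FOXP3 KO (median 13998358), and the libraries numbered 12 were the shallowest of both groups. Across genes within libraries, the log2 CPM values of 2 libraries of a group correlated at 0.963 to 0.980, and those of libraries of different groups at 0.890 to 0.913. MALAT1 took 2.39% to 3.11% of the counts in HT1376 CT and 4.47% to 5.27% in treated HT1376 FOXP3 KO, and mitochondrial genes took 3.10% to 3.63% and 4.08% to 4.86%. FOXP3 had 1, 0 and 0 counts in HT1376 CT and 0, 0 and 3 counts in treated HT1376 FOXP3 KO. It was too low to test or to check the labels, and the libraries cannot show at this depth whether its RNA differed.

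IFNγ is the cytokine by which T cells and natural killer cells alert other cells. It binds the receptor formed by IFNGR1 and IFNGR2, whose kinases JAK1 and JAK2 send a signal to the nucleus. There it acts through a palindromic DNA element, the gamma-activated sequence, and induces among others the transcription factor IRF1. The response in turn raises the transactivators NLRC5, which drives MHC class I genes, and CIITA, which drives MHC class II genes, as well as guanylate-binding proteins, chemokines for T cells and the checkpoint ligand PD-L1, encoded by CD274.

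The gamma-activated sequence was searched as TTCNNNGAA, which is its own reverse complement and so covers both strands, in the RefSeq promoter windows of 250 bases before to 50 bases after each start (GRCh38). The windows that hold it are shown for genes at the head of the pathway and for CD274, each as 29 bases read 5′ to 3′ on the gene's strand, with the matching bases in capitals. They come from chr5:132490879-132490907 (IRF1, minus strand), chr19:10271035-10271063 (ICAM1, plus strand), chr1:89022863-89022891 (GBP3, minus strand), chr6:32852932-32852960 (TAP1, minus strand, in 1 of its 2 windows) and chr9:5450407-5450435 (CD274, plus strand).
IRF1: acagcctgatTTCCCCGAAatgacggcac
ICAM1: ggcgcgaggtTTCCGGGAAagcagcaccg
GBP3: actgagtcacTTCCTTGAAagaagtactt
TAP1: gtagcgtgggTTCTGGGAAatgtggagca
CD274: ttccgccgatTTCACCGAAggtcaggaaa
The first matching base lay 124 bases before the start in IRF1, 75 in ICAM1, 15 in GBP3, 189 in TAP1 and 125 in CD274. Of these genes, IRF1, ICAM1, GBP3 and TAP1 ended above the unstimulated control and CD274 ended below it. The windows of GBP1, GBP4 and PSMB9 held no match. Over all 35116 windows, 2689 (7.66%) held the letters. Of the 163 windows of 116 tested genes on 11 lists of IFNγ-related genes, 27 did (16.6%), namely 21 of 102 for genes that ended above the control (20.6%), 4 of 21 for genes below it (19%), 0 of 17 for genes at its level and 2 of 23 for undecided genes (8.7%). A match is a description of the letters, not a bound site, and 42 tested genes of these lists had no window in the table.

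In all, 25493 genes reached a total of 10 counts over the 6 libraries. Treated HT1376 FOXP3 KO was above unstimulated HT1376 CT in 3776 of them (14.8%) and below it in 4529 (17.8%), by edgeR's quasi-likelihood test at an adjusted p under 0.05. A further 6146 genes (24.1%) stood at the control level, which means that they were not called and that the 95% interval of the fold change lay within 2-fold either way. The remaining 11042 (43.3%) were undecided, with an interval too wide to say. An interval within 2-fold was also found for 1828 called genes. Called genes and genes at the control level thus overlap in the size of their change. Below, a value given for a gene without a unit is its log2 fold change, against the control unless it is named as an IFNγ effect. Of the called genes, 2385 were over 2-fold higher and 2733 over 2-fold lower, and the 2 groups did not overlap in 3689 and 4470 of them (over all genes, called or not, groups did not overlap in 22.1% on the higher and 24.9% on the lower side). The undecided share depended on level. It was 97.3% of genes under 0.1 CPM, 83.3% from 0.1 to 1 CPM, 41.0% from 1 to 10 CPM, 2.97% from 10 to 100 CPM and 1.93% above 100 CPM. CPM here are counts scaled to the library's total with TMM factors, and a level of a gene is given in this unit for libraries 11, 12 and 13 in that order.

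**Figure D1:**
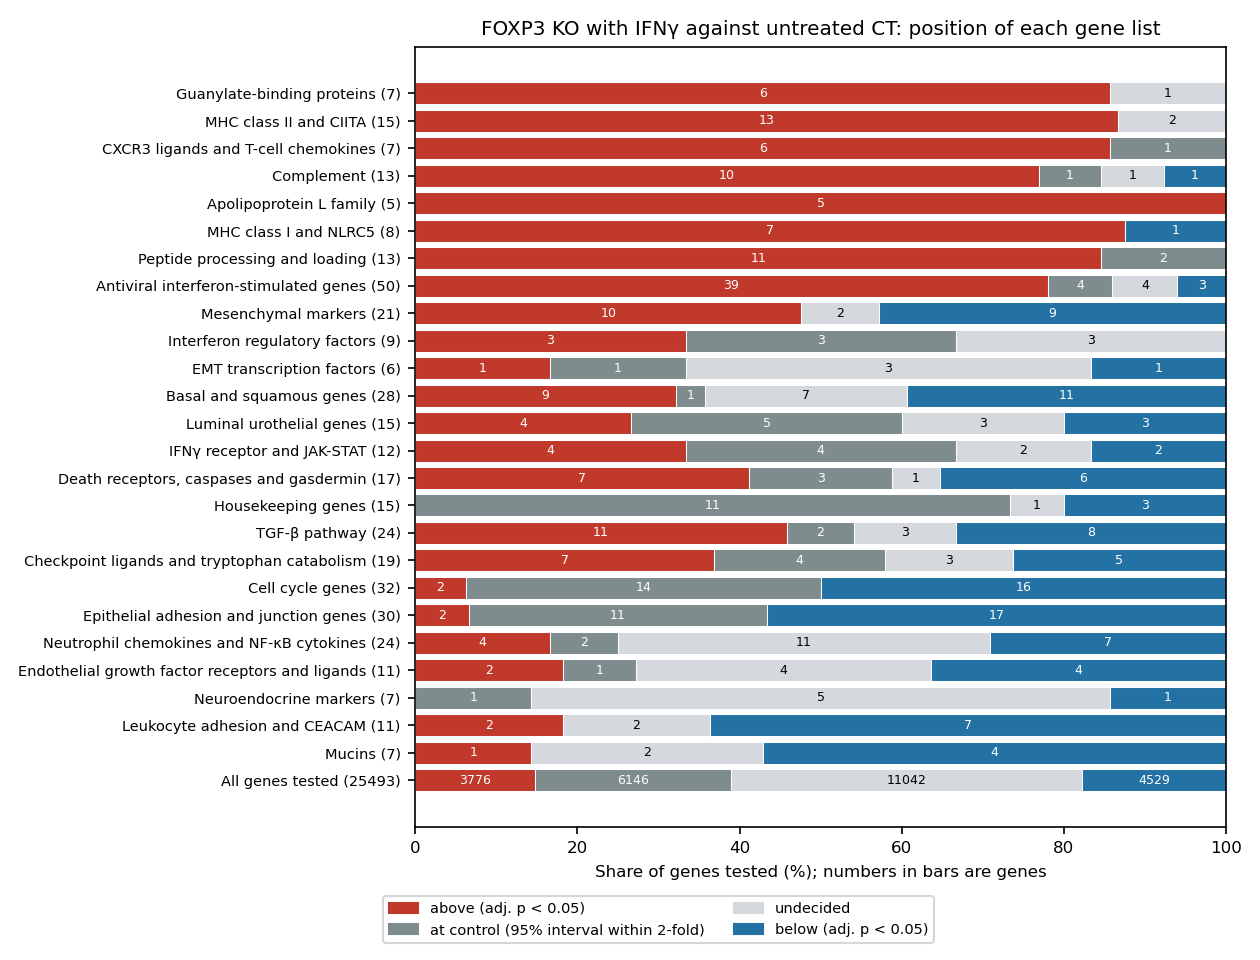
Share of the tested genes of each list (x axis, %) that were above, at, undecided against or below the unstimulated control in treated HT1376 FOXP3 KO, with the number of genes in the bars. All 5 tested APOL genes and 13 of 15 MHC class II genes were above, beside 14.8% of all genes, while 17 of 30 epithelial genes were below, beside 17.8%.

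To separate the genes that answered IFNγ in the knockout line from those that did not, treated was also set against untreated HT1376 FOXP3 KO. There 236 of 24131 genes were higher (0.978%) and 1 was lower (0.00414%). Of the 236, 200 ended above the unstimulated control (84.7%), 13 at its level (5.51%), 12 below it (5.08%) and 11 undecided (4.66%). The comparisons share the treated libraries, so these counts are a description of where the genes stood. Before IFNγ, in untreated HT1376 FOXP3 KO against the same control libraries, 57 of the 200 were at the control level, 31 were higher, 48 lower and 50 undecided, and 14 were too low to test. Over all 25320 genes of that comparison, 14% were higher, 18.2% lower, 24.9% at the control level and 42.9% undecided. Of the 13 that ended at the control, 12 had been lower and 1, RNF213, had already been at its level. All 12 that ended below had been lower, as had 10 of the 11 undecided. This follows largely from the choice of genes, since a gene that rose and still ended below or at the control must have started lower or near it. Samples with the same number deviated together in this side comparison, and with the number as a block 947 genes were higher and 387 lower. Of those 947, 504 ended above the control, 216 at its level, 143 below and 84 undecided. Of the 387 lower, 90 ended above, 109 at, 156 below and 32 undecided. With the block, few libraries remain to estimate the spread of a single gene. The very small adjusted p given below for IFNγ effects with the block therefore rest on variance pooled over genes. They do not measure the spread of that gene between libraries.

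**Figure D2:**
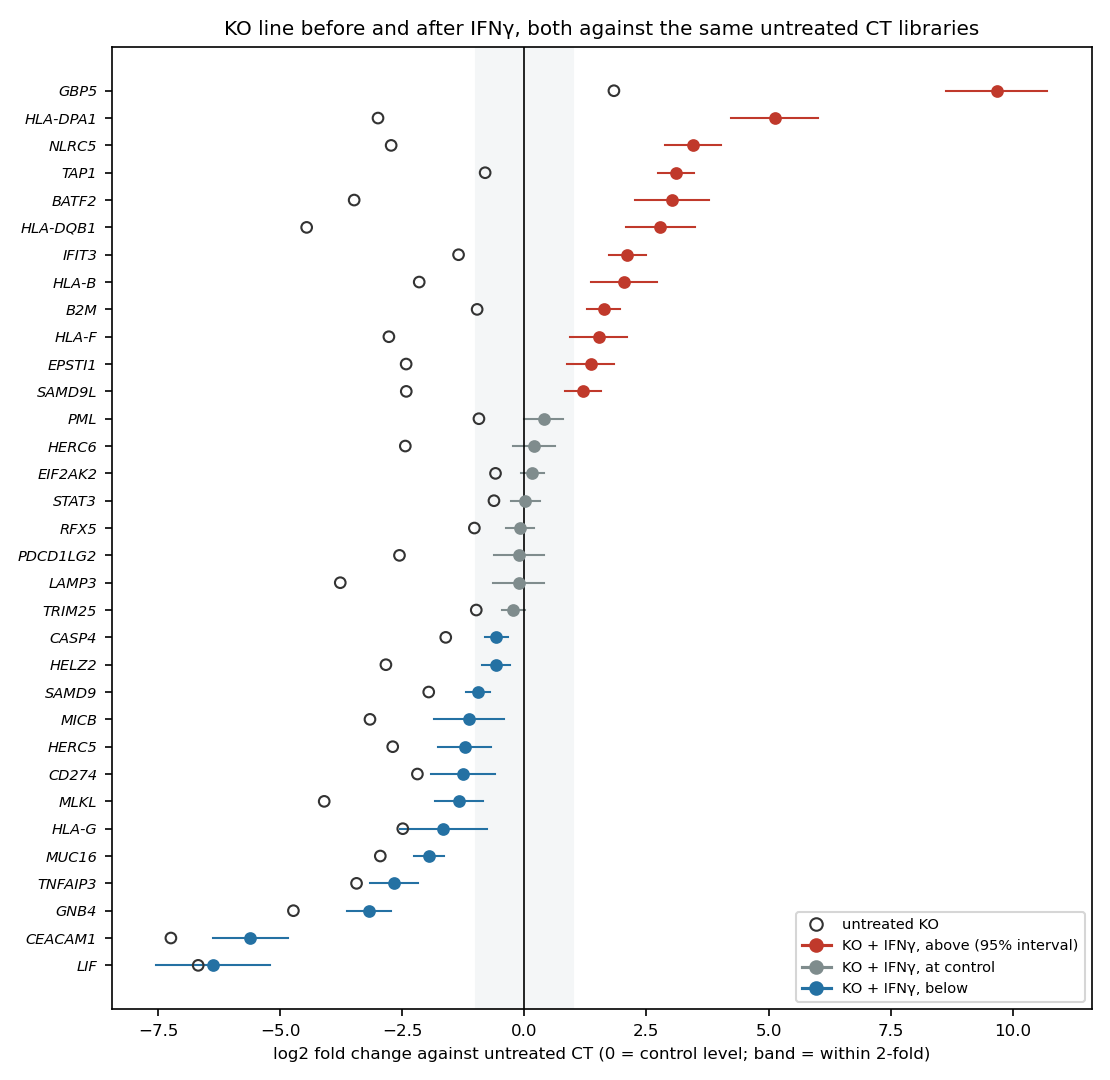
Log2 fold change against the same unstimulated HT1376 CT libraries for 33 genes (x axis), with open circles for untreated and filled circles for IFNγ-treated HT1376 FOXP3 KO, and lines for the 95% interval of the latter. NLRC5 moved from -2.73 to 3.45, PDCD1LG2 from -2.56 to -0.11 and CEACAM1 from -7.24 to -5.62. The circles share the control libraries.

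The signalling components split. Of 12 receptor, kinase, STAT and feedback genes, 4 were above the control, 2 below, 4 at its level and 2 undecided (median log2 fold change 0.09, against -0.01 over all genes). STAT2, a transducer of type I interferon signalling, was higher at 2.14 (adjusted p = 5.40e-07). SOCS1, a feedback inhibitor of JAK kinases, was higher at 1.09 (adjusted p = 0.0170), having stood at -1.12 before treatment. Without treated library 13 the SOCS1 call was lost (adjusted p = 0.0685). JAK1 was higher at 0.46 (adjusted p = 0.0157), with 0.54 before treatment and an IFNγ effect of -0.08, which was not called. Without control library 11 or 12 the JAK1 call was lost (adjusted p = 0.0625 and 0.0550). The receptor chains were the members below the control. IFNGR1, the ligand-binding chain, measured 62.7, 52.6 and 60.2 CPM in HT1376 CT and 35.2, 39.3 and 32.9 CPM in treated HT1376 FOXP3 KO (log2 fold change -0.71, SE 0.13, adjusted p = 0.00160). IFNGR2, the signalling chain, measured 40.4, 39.1 and 47.0 CPM in HT1376 CT and 15.3, 19.1 and 19.1 CPM in treated HT1376 FOXP3 KO (log2 fold change -1.24, SE 0.15, adjusted p = 1.06e-04). Neither chain was called for an IFNγ effect (-0.15 and -0.03), and both were already lower before treatment (-0.56 and -1.22). JAK2, PTPN2, PIAS1 and STAT3 stood at the control level, and SOCS3 and CISH were undecided. JAK2 measured -0.38 (adjusted p = 0.0625), and was called below with the replicate block (adjusted p = 0.0406), with all 12 libraries in 1 fit (0.0337) and with another filter on low counts, filterByExpr (0.0460), which makes 3 of the 12 below. Without treated library 13 PIAS1 was called above (adjusted p = 0.0402).

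Of 11 interferon regulatory factors and BATF partners, 9 were tested, and 3 were above the control, 3 at its level and 3 undecided. IRF1 (chr5:132440440-132508719 in the GRCh38 annotation) measured 56.1, 66.6 and 64.5 CPM in HT1376 CT and 386, 386 and 381 CPM in treated HT1376 FOXP3 KO. The groups were far apart (log2 fold change 2.62, SE 0.11, adjusted p = 8.68e-08), and IRF1 had stood at the control level before treatment (-0.28). IRF9, the DNA-binding part of the type I interferon complex, was higher at 2.24 (adjusted p = 3.22e-04). BATF2 measured 2.54, 0.938 and 1.12 CPM in HT1376 CT and 10.9, 14.5 and 11.9 CPM in treated HT1376 FOXP3 KO and was higher at 3.02 (adjusted p = 8.36e-05), after a value of -3.49 in the untreated knockout. IRF2 and IRF3 were among those at the control level, at 0.15 and -0.07. IRF7 was undecided, at 0.67 with an interval of 0.09 to 1.25. It was called above without control library 12 or with the replicate block (adjusted p = 0.0367 and 0.00813), as was IRF8 without treated library 12 (adjusted p = 0.0377).

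Most MHC class I genes went from below the control to above it. Of the 8 members tested, 7 were below the control in the untreated knockout, and 7 were above it after IFNγ (median 1.89). HLA-B, a classical class I heavy chain, measured 162, 504 and 338 CPM in HT1376 CT and 1212, 1522 and 1378 CPM in treated HT1376 FOXP3 KO. Before treatment it stood at -2.16 and afterwards at 2.04 (SE 0.30, adjusted p = 6.54e-04). HLA-C, another classical heavy chain, went from 0.25, at the control level, to 2.33. The non-classical HLA-E and HLA-F went from -0.52 and -2.78 to 1.93 and 1.52. B2M, the common light chain, measured 466, 706 and 586 CPM in HT1376 CT and 1649.9, 2073 and 1699.8 CPM in treated HT1376 FOXP3 KO and went from -0.97 to 1.63 (adjusted p = 2.26e-05). NLRC5, the class I transactivator, measured 5.65, 14.0 and 7.01 CPM in HT1376 CT and 96.1, 96.5 and 93.5 CPM in treated HT1376 FOXP3 KO. It was the member with the largest change between the states of the knockout line, from -2.73 to 3.45 (SE 0.26, adjusted p = 6.87e-06). HLA-G, the non-classical ligand of inhibitory receptors, was the exception. It measured 399, 716 and 445 CPM in HT1376 CT and 127, 292 and 76.0 CPM in treated HT1376 FOXP3 KO, remained below the control (log2 fold change -1.66, SE 0.40, adjusted p = 0.0102) and had stood at -2.49 before treatment. Its IFNγ effect of 0.82 was called only with the replicate block (adjusted p = 0.999 without and 1.79e-33 with it). Without treated library 12, the highest of its group, HLA-G stood at -2.32 against the control. HLA genes are near-identical in parts, so the split of reads among them is uncertain.

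Genes that cut peptides and load them on class I molecules were above the control in 11 of 13, and CALR and PDIA3, general chaperones of the endoplasmic reticulum, stood at its level (-0.19 and -0.16). TAP1, a subunit of the peptide transporter, measured 31.6, 45.9 and 50.7 CPM in HT1376 CT and 355, 342 and 407 CPM in treated HT1376 FOXP3 KO (log2 fold change 3.10, SE 0.16, adjusted p = 6.32e-07). Its partner TAP2 measured 38.5, 35.4 and 42.2 CPM in HT1376 CT and 64.4, 49.9 and 69.3 CPM in treated HT1376 FOXP3 KO with a log2 fold change of 0.66 (adjusted p = 0.00552). Both had been lower before treatment, at -0.81 and -1.19. The immunoproteasome subunits PSMB8, PSMB9 and PSMB10 were higher at 1.76, 2.78 and 2.59. The trimming peptidases ERAP1 and ERAP2 were higher at 1.31 and 1.64, and had been near 0 before treatment (0.00 and 0.07).

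Apart from HLA-DQB1 and CTSS, the MHC class II genes had mean levels under 1 CPM in the unstimulated control. Of 15 members, 13 were above the control after IFNγ, and HLA-DOB and IFI30 were undecided, HLA-DOB being called above without treated library 11 or 13 or with the replicate block (adjusted p = 0.0447, 0.0328 and 0.0297), which makes 14. CIITA, the class II transactivator, measured 0.634, 0.860 and 0.241 CPM in HT1376 CT and 75.4, 108 and 49.9 CPM in treated HT1376 FOXP3 KO (log2 fold change 7.30, SE 0.46, adjusted p = 6.85e-07). CD74, the invariant chain, measured 0.519, 0.391 and 0.991 CPM in HT1376 CT and 271, 243 and 197 CPM in treated HT1376 FOXP3 KO with a log2 fold change of 8.35 (adjusted p = 2.14e-08). HLA-DRA measured 0, 0.234 and 0.214 CPM in HT1376 CT and 123, 101 and 71.5 CPM in treated HT1376 FOXP3 KO with a log2 fold change of 9.20 (adjusted p = 9.36e-08). In all 3 genes the lowest treated library was far above the highest control library. HLA-DPA1 and HLA-DMA were higher at 5.13 and 4.35. Without control library 13 the values were 6.71 for CIITA, 8.97 for CD74 and 9.83 for HLA-DRA. HLA-DQB1 differed from them in having a higher starting level, at 2.83, 5.47 and 8.27 CPM in HT1376 CT and 44.2, 44.6 and 28.5 CPM in treated HT1376 FOXP3 KO. It had fallen to -4.46 against the control in the untreated knockout and stood at 2.78 after IFNγ (adjusted p = 1.09e-04). HLA-DRB5 was at 0 counts in all control libraries and was at least 3.12-fold higher, taking 3 counts in each control library as the floor. CTSS, a protease that trims the invariant chain, was higher at 2.79 (adjusted p = 1.25e-04). The list's median was 6.37, or 5.71 with genes at 3 counts or less placed at their bound. HLA-DRB1 and HLA-DRB5 share sequence, so their values are uncertain.

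Guanylate-binding proteins, GTPases that attack vacuoles of intracellular pathogens, were above the control in 6 of 7 (median 6.99), and IRGM was undecided. GBP5 measured 0, 0.391 and 0.535 CPM in HT1376 CT and 353, 275 and 264 CPM in treated HT1376 FOXP3 KO (log2 fold change 9.68, SE 0.47, adjusted p = 8.04e-08). GBP1 measured 4.44, 5.70 and 7.44 CPM in HT1376 CT and 765, 819.5 and 689 CPM in treated HT1376 FOXP3 KO and GBP2 measured 0.750, 1.17 and 1.12 CPM in HT1376 CT and 535, 422 and 402 CPM in treated HT1376 FOXP3 KO. GBP1 and GBP2 were already above the control before IFNγ, at 2.94 and 6.35, and ended at 6.99 and 8.78. For GBP3 and GBP4 the values before treatment were 0.28 and 0.92, neither called, and the values after it 2.32 and 7.38. Single control libraries moved these folds, to 10.73 for GBP5 without library 13 and 8.19 for GBP4 without library 12. GBP1 and its pseudogene GBP1P1 may share reads. The apolipoprotein L genes, whose best known member APOL1 lyses trypanosomes, were above in all 5 tested. APOL1 measured 30.1, 42.5 and 38.1 CPM in HT1376 CT and 189.7, 197 and 179 CPM in treated HT1376 FOXP3 KO with a log2 fold change of 2.35 (adjusted p = 8.99e-07). APOL2 and APOL4 were higher at 1.33 and 7.98 (10.73 for APOL4 without control library 13). APOL6 measured 165, 247 and 241 CPM in HT1376 CT and 878, 896 and 916 CPM in treated HT1376 FOXP3 KO with a log2 fold change of 2.04 (adjusted p = 3.78e-06).

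Chemokines that draw T cells were above the control in 6 of 7 tested. CXCL9, a ligand of CXCR3, had 0 counts in every control library and 1.24, 5.23 and 1.63 CPM in the treated knockout, at least 16.6-fold higher. CXCL10, another CXCR3 ligand, measured 0.173, 0.313 and 0.455 CPM in HT1376 CT and 16.1, 27.7 and 13.0 CPM in treated HT1376 FOXP3 KO (log2 fold change 5.75, SE 0.44, adjusted p = 2.96e-06). CXCL11 measured 0.288, 0.547 and 0.321 CPM in HT1376 CT and 2.48, 5.78 and 4.34 CPM in treated HT1376 FOXP3 KO with a log2 fold change of 3.48 (adjusted p = 2.0e-04). All 3 CXCR3 ligands were therefore higher, from control levels below 1 CPM. CX3CL1 also had 0 control counts and was at least 14.1-fold higher. CCL5, which draws T cells, was higher at 4.04 (adjusted p = 3.58e-04), and its IFNγ effect of 2.08 in the knockout line was called only with the replicate block (adjusted p = 0.191 without and 1.11e-18 with it), and it had stood at 1.98 before treatment. CCL28 was higher at 2.86 (adjusted p = 0.00787). CXCL16 stood at the control level (-0.49, interval -0.90 to -0.09), and was called below without treated library 13 or control library 11 or with the replicate block (adjusted p = 0.0387, 0.0273 and 0.00309). Its IFNγ effect of 0.71 was called only with the block (adjusted p = 0.111 without and 1.48e-11 with it).

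Complement genes were above the control in 10 of 13 tested, with 1 below, 1 at its level and 1 undecided. C1S, a protease of the classical pathway, measured 0.634, 0.860 and 0.455 CPM in HT1376 CT and 69.2, 112 and 87.5 CPM in treated HT1376 FOXP3 KO (log2 fold change 7.22, SE 0.29, adjusted p = 4.19e-08), and was undecided before treatment (0.13). C1R, which activates C1S, was higher at 5.42 (adjusted p = 5.58e-08). SERPING1, the inhibitor of both proteases, measured 0.346, 0.391 and 0.616 CPM in HT1376 CT and 70.9, 87.2 and 77.9 CPM in treated HT1376 FOXP3 KO. It was 7.31 above the control (adjusted p = 1.24e-08), having stood at 5.66 before IFNγ. CD59, which blocks the membrane attack complex, was the member below the control (-0.61, adjusted p = 0.00223). CD46, a cofactor for cleavage of C3b, stood at the control level (0.16), and C2 was undecided (0.46, interval -0.33 to 1.25). C4A and C4B are near-identical copies, and their separate values are uncertain.

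Of 50 antiviral interferon-stimulated genes, all were tested, and 39 were above the control, 3 below, 4 at its level and 4 undecided (median 1.38). In the untreated knockout, 28 of the 50 were below the control and 6 above it. TRIM22, a ubiquitin ligase that restricts viruses, measured 0.807, 2.19 and 0.482 CPM in HT1376 CT and 144, 161 and 105 CPM in treated HT1376 FOXP3 KO (log2 fold change 7.12, SE 0.40, adjusted p = 6.55e-07), or 7.82 without control library 12. IFI44L measured 0.288, 1.33 and 0.669 CPM in HT1376 CT and 15.4, 21.5 and 5.52 CPM in treated HT1376 FOXP3 KO with a log2 fold change of 4.26 (adjusted p = 2.51e-04), having been undecided before treatment (-1.27). XAF1, a pro-apoptotic factor, went from -2.14 to 4.20, and OAS2, a sensor of double-stranded RNA, from -1.55, not called, to 3.34. Without control library 12 these stood at 4.92 and 4.26. SAMD9L, which restricts translation of viral RNA, measured 76.9, 118 and 80.1 CPM in HT1376 CT and 235, 208 and 190.4 CPM in treated HT1376 FOXP3 KO, and went from -2.42 to 1.20 (adjusted p = 3.40e-04). XAF1 and SAMD9L were thus called below the control before treatment and above it afterwards. ISG15, the ubiquitin-like modifier, was a narrow case, at 7.55, 14.1 and 8.65 CPM in HT1376 CT and 12.6, 20.2 and 17.8 CPM in treated HT1376 FOXP3 KO. Its groups overlapped, and its log2 fold change of 0.75 had an adjusted p = 0.0486, which was lost without treated library 12 or 13 (0.0879 and 0.114) or control library 11 or 13 (0.151 and 0.166). IFITM2, which blocks virus entry, was higher at 1.05 (adjusted p = 1.24e-04) with no called IFNγ effect (-0.14). HERC5, the ligase that attaches ISG15, and USP18, the protease that removes it, were below the control along with SAMD9. HERC5 measured 20.9, 37.1 and 21.1 CPM in HT1376 CT and 12.4, 12.7 and 8.85 CPM in treated HT1376 FOXP3 KO (log2 fold change -1.23, SE 0.25, adjusted p = 0.00352), after -2.70 before treatment. USP18 measured 7.50, 10.7 and 10.6 CPM in HT1376 CT and 6.06, 5.56 and 5.08 CPM in treated HT1376 FOXP3 KO (log2 fold change -0.79, SE 0.22, adjusted p = 0.0189), after -2.07. Their IFNγ effects were called only with the block (adjusted p = 0.164 without and 9.26e-15 with it for HERC5, 0.210 and 4.00e-06 for USP18), and the USP18 call against the control was lost without treated library 13 or control library 12 or 13 (adjusted p = 0.0663, 0.0578 and 0.0795).

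**Figure D3:**
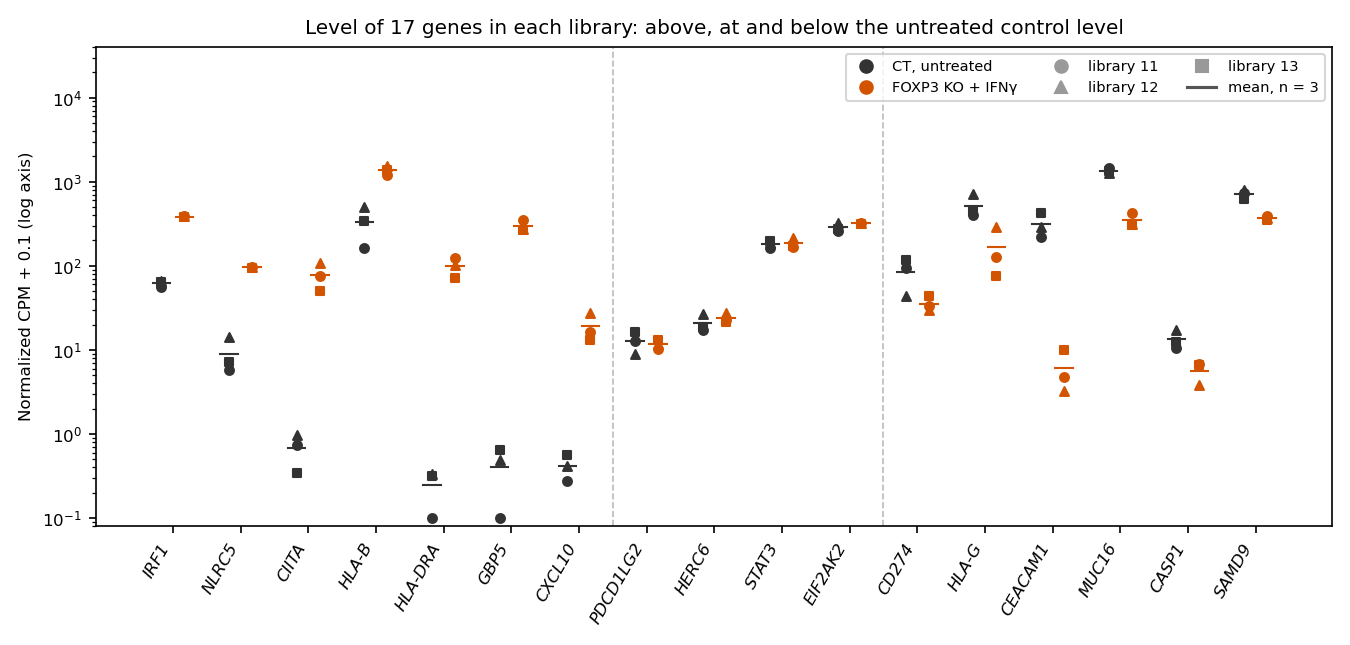
Level of 17 genes in each library (y axis, CPM + 0.1, log axis), with black for unstimulated HT1376 CT and orange for treated HT1376 FOXP3 KO, marker shapes for the library number and bars for the mean of 3. The 7 genes on the left were above the control, the 4 in the middle at its level and the 6 on the right below it. CD274 had means of 85.3 ± 37.8 and 35.4 ± 7.41 CPM (SD, n = 3).

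Without the replicate block, 13 genes were called for a rise with IFNγ in the knockout line and ended at the control level (216 with it). The 13 included a checkpoint ligand, a STAT and 4 antiviral genes. PDCD1LG2, which encodes the PD-1 ligand PD-L2 (chr9:5510531-5571282), measured 12.6, 8.75 and 16.1 CPM in HT1376 CT and 10.3, 11.6 and 13.0 CPM in treated HT1376 FOXP3 KO. The groups overlapped, and the log2 fold change was -0.11 with an interval of -0.63 to 0.40. It had stood at -2.56 before treatment, and the IFNγ effect was 2.46 (adjusted p = 0.00287). HERC6 measured 17.0, 26.8 and 18.5 CPM in HT1376 CT and 22.4, 27.4 and 21.2 CPM in treated HT1376 FOXP3 KO. It went from -2.44 to 0.19 (interval -0.24 to 0.62). EIF2AK2, the RNA-activated kinase PKR, measured 263, 321 and 274 CPM in HT1376 CT and 321, 325 and 312 CPM in treated HT1376 FOXP3 KO and went from -0.59 to 0.16 (interval -0.08 to 0.40). PML, the scaffold of nuclear bodies, went from -0.93 to 0.39 (interval 0.00 to 0.78), and TRIM25, an activator of the RNA sensor RIG-I, from -0.99 to -0.23 (interval -0.47 to 0.02). STAT3 measured 162, 186 and 199.7 CPM in HT1376 CT and 167, 215 and 172 CPM in treated HT1376 FOXP3 KO and went from -0.63 to 0.02 (interval -0.28 to 0.31). RFX5, a subunit of the complex that binds MHC promoters, went from -1.03 to -0.09 (interval -0.37 to 0.20), and LAMP3, a lysosomal membrane protein, from -3.77 to -0.12 (interval -0.64 to 0.41). The others were LYPD5, MOB3C and GUK1, which had been lower, RNF213, which was called above without control library 12 (0.40, adjusted p = 0.0464), and 1 gene model of no settled type. The intervals of LYPD5 (0.01 to 0.69), RNF213 (0.04 to 0.58) and GUK1 (-0.62 to -0.03) lay to 1 side of 0. GUK1, at -0.33, was not called, whereas PSMA4, at -0.30, was called below. With the replicate block PML and RNF213 were called above and GUK1 below (adjusted p = 0.0360, 0.0265 and 0.0203). The IFNγ effect of RNF213 was 0.67 (adjusted p = 0.0266).

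Without the replicate block, 12 genes were called for a rise with IFNγ in the knockout line and still ended below the control. They were PSMA4, CASP4, HELZ2, ARNTL2, RAB27B, XDH, SAMD9, MICB, DAPP1, MLKL, MUC16 and GNB4. With the block 143 genes did so, among them CD274, HLA-G, HERC5, CEACAM1 and CASP1, so the 12 are not a full set. The log2 fold changes of the 12 against the control after treatment ran from -3.19 (GNB4, a G protein subunit) to -0.30 (PSMA4, a proteasome subunit). SAMD9, an antiviral factor, measured 736, 787 and 625 CPM in HT1376 CT and 393, 369 and 347 CPM in treated HT1376 FOXP3 KO. Every treated library was below every control library (log2 fold change -0.95, SE 0.11, adjusted p = 1.09e-04), and the value before treatment was -1.96. MLKL, which ruptures the membrane in necroptosis, measured 12.9, 16.8 and 15.0 CPM in HT1376 CT and 6.13, 7.34 and 4.44 CPM in treated HT1376 FOXP3 KO (log2 fold change -1.34, SE 0.22, adjusted p = 0.00110), and had stood at -4.10. MICB, a stress ligand of the receptor NKG2D, measured 11.2, 25.3 and 27.8 CPM in HT1376 CT and 7.85, 13.7 and 8.33 CPM in treated HT1376 FOXP3 KO. Its groups overlapped, and its value went from -3.17 to -1.14 (adjusted p = 0.0229). Without 1 library this call was lost in 4 cases, with adjusted p of 0.0914 and 0.0774 without treated libraries 11 and 13, and 0.0740 and 0.111 without control libraries 12 and 13. The PSMA4 call was lost without any single library but treated library 12, with adjusted p from 0.0770 to 0.183. HELZ2, a nuclear coactivator, measured 43.6, 48.3 and 52.3 CPM in HT1376 CT and 29.3, 31.9 and 35.1 CPM in treated HT1376 FOXP3 KO and went from -2.84 to -0.58 (adjusted p = 0.00601). GNB4 measured 38.2, 54.1 and 37.1 CPM in HT1376 CT and 5.58, 4.89 and 3.86 CPM in treated HT1376 FOXP3 KO and went from -4.73 to -3.19 (adjusted p = 1.88e-06). The IFNγ effects of MICB, XDH, MUC16 and GNB4 had adjusted p of 0.0273, 0.0354, 0.0294 and 0.0338.

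Another 11 genes were called for a rise with IFNγ without the replicate block and were undecided against the control (84 with the block). The 11 were HCP5, TYMP, PARP8, TNFRSF14, IRF7, IFIT1, MARCKSL1, APOBEC3F, MX1, ISG20 and BIRC3. HCP5, a long non-coding RNA of the MHC class I region, measured 5.13, 31.5 and 15.2 CPM in HT1376 CT and 43.7, 40.5 and 40.9 CPM in treated HT1376 FOXP3 KO. It went from -4.94 to 1.29, with an interval of 0.30 to 2.28 and an adjusted p of 0.0505. MX1, a GTPase that blocks influenza virus, measured 26.2, 61.3 and 27.9 CPM in HT1376 CT and 39.6, 68.2 and 31.3 CPM in treated HT1376 FOXP3 KO and had an interval of -0.50 to 1.03. IFIT1, which binds foreign RNA, measured 12.6, 22.4 and 13.2 CPM in HT1376 CT and 16.7, 30.6 and 20.2 CPM in treated HT1376 FOXP3 KO and had an interval of -0.11 to 1.08. BIRC3, an inhibitor of apoptosis in the NF-κB pathway, measured 209, 325 and 435 CPM in HT1376 CT and 200.1, 251 and 175 CPM in treated HT1376 FOXP3 KO and had an interval of -1.14 to -0.12. For these genes neither a difference over 2-fold nor the control level was shown. Without control library 12, HCP5, TYMP, PARP8, TNFRSF14, IRF7, IFIT1 and MARCKSL1 were called above the control, with adjusted p from 0.00360 (HCP5) to 0.0466 (TYMP). Without treated library 12, HCP5 and TYMP were called above and BIRC3 below (adjusted p = 0.0491, 0.0480 and 0.0301), and without control library 11, HCP5 above and BIRC3 below (adjusted p = 0.0410 and 0.00610). With the replicate block HCP5, PARP8, TNFRSF14, IRF7 and IFIT1 were called above, with adjusted p from 0.00320 (HCP5) to 0.0153 (PARP8), and BIRC3 below (adjusted p = 0.0213).

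Checkpoint ligands and tryptophan-pathway genes ended on all sides of the control. Of 19 tested, 7 were above, 5 below, 4 at its level and 3 undecided (median -0.11). CD274 (chr9:5450503-5470566), which encodes PD-L1, measured 94.3, 43.8 and 118 CPM in HT1376 CT and 33.1, 29.4 and 43.7 CPM in treated HT1376 FOXP3 KO. All treated libraries were below all control libraries, with a mean of 35.4 ± 7.41 against 85.3 ± 37.8 CPM (SD, n = 3) and a log2 fold change of -1.27 (SE 0.30, interval -1.92 to -0.61, adjusted p = 0.00814). The untreated knockout had stood at -2.19 against the same control. The IFNγ effect in the knockout line, 0.94, was not called without the replicate block (adjusted p = 0.117) and was called with it (adjusted p = 8.23e-16). CD274 and PDCD1LG2 lie near each other on chromosome 9 and ended differently, below the control and at its level. The difference between these genes was not tested. IDO1, which breaks down tryptophan, measured 0, 0.313 and 0.187 CPM in HT1376 CT and 12.9, 14.1 and 17.0 CPM in treated HT1376 FOXP3 KO (log2 fold change 6.45, SE 0.55, adjusted p = 2.81e-06). Before treatment IDO1 was undecided, with at most 1 count in any untreated knockout library. WARS1, the tryptophanyl-tRNA synthetase, measured 62.0, 69.9 and 92.4 CPM in HT1376 CT and 2012, 1807 and 1924 CPM in treated HT1376 FOXP3 KO with a log2 fold change of 4.68 (adjusted p = 2.53e-08). KYNU, a later enzyme of tryptophan breakdown, was below the control at -0.97 (adjusted p = 0.0144), with an uncalled IFNγ effect of 0.10, and the call was lost without control library 13 (adjusted p = 0.0788).

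The butyrophilins BTN3A1, BTN3A2 and BTN3A3, which present signals to γδ T cells, were above the control at 1.33, 2.0 and 3.22 (3.84 for BTN3A3 without control library 12), and share sequence among themselves. VSIR, which encodes VISTA, was above at 0.81 (adjusted p = 0.0120), and CD276, which encodes B7-H3, was below at -0.83 (adjusted p = 0.00136). Neither IFNγ effect was called without the block (0.43 and -0.07), and with it that of VSIR was (adjusted p = 8.91e-08). NECTIN2 and PVR, ligands of TIGIT, stood at the control level (0.07 and -0.40, PVR being called below without control library 12 or with the replicate block, adjusted p = 0.0173 and 0.0288). CD47, a ligand that restrains macrophages, also stood at the control level, at -0.28 after -1.27 before treatment, and was called below without treated library 12 or with the block (adjusted p = 0.0156 and 0.0391). Its IFNγ effect was not called without the block. With the block 7 checkpoint and tryptophan-pathway genes were below and 2 at the control level, against 5 and 4 without it. TNFRSF14, a ligand of BTLA, was undecided at 0.96 (interval 0.17 to 1.75), and was called above without control library 12 (adjusted p = 0.00399). VTCN1, CD86 and HHLA2 were called from means of under 2 CPM in both groups. HHLA2 was at 0 in all treated libraries and at least 1.57-fold lower. The VTCN1 call was lost without any 1 library but treated library 13 (adjusted p from 0.0786 to 0.190) and with the replicate block (adjusted p = 0.0910), the HHLA2 call without treated library 13 (adjusted p = 0.0536), and the CD86 call without treated library 11 or 12 or control library 11 or 13 (adjusted p from 0.0668 to 0.269). LGALS9, which encodes galectin-9, was undecided (-0.60, interval -1.47 to 0.27).

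**Figure D4:**
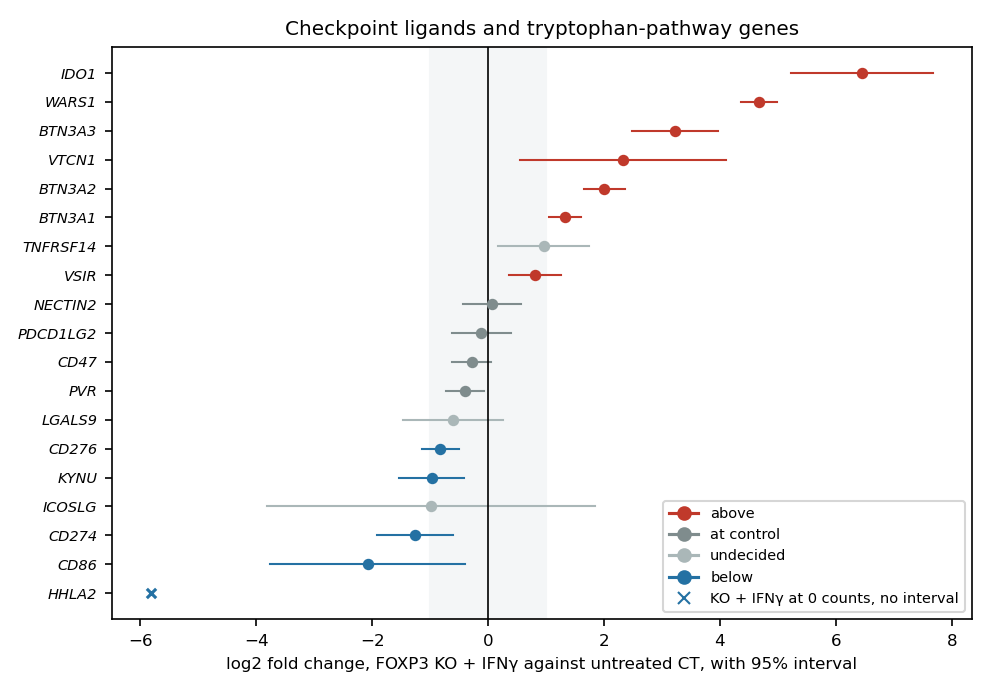
Log2 fold change of 19 checkpoint and tryptophan-pathway genes in treated HT1376 FOXP3 KO against unstimulated HT1376 CT (x axis), with lines for the 95% interval, a band for within 2-fold and a cross for a gene at 0 in all treated libraries. IDO1 (6.45) and WARS1 (4.68) lie farthest to the right among genes with an interval, PDCD1LG2 lies within the band and CD274 lies to its left at -1.27.

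Genes of death receptors, caspases and pyroptosis were above the control in 7 of 17, below in 6, at its level in 3 and undecided in 1. TNFSF10, which encodes the death ligand TRAIL, measured 3.34, 19.8 and 2.89 CPM in HT1376 CT and 249, 621 and 176 CPM in treated HT1376 FOXP3 KO. It was above the control (log2 fold change 5.42, SE 0.66, adjusted p = 3.56e-04), having stood at 4.48 before IFNγ. Leaving out treated library 12 or control library 12 gave 4.78 and 6.82. Its IFNγ effect of 0.92 was called only with the block (adjusted p = 0.999 without and 5.55e-66 with it). The TRAIL receptors TNFRSF10A and TNFRSF10B were below. TNFRSF10A measured 46.4, 36.8 and 48.3 CPM in HT1376 CT and 11.0, 5.45 and 9.80 CPM in treated HT1376 FOXP3 KO with a log2 fold change of -2.30 (adjusted p = 3.20e-05), against -2.31 before treatment. TNFRSF10B measured 78.0, 83.8 and 100.2 CPM in HT1376 CT and 23.3, 25.1 and 23.8 CPM in treated HT1376 FOXP3 KO with a log2 fold change of -1.86 (adjusted p = 2.75e-06), against -2.04 before treatment. The ligand was thus higher and both receptors lower than in the control. FAS was above at 0.84 (adjusted p = 0.00879) after an undecided -0.56. CASP1, which activates IL-1β, measured 10.5, 17.3 and 12.4 CPM in HT1376 CT and 6.61, 3.67 and 6.45 CPM in treated HT1376 FOXP3 KO and was below at -1.23 (adjusted p = 0.00536) after -3.11. Its IFNγ effect had an adjusted p of 0.0731 without and 6.73e-11 with the block. CASP4, the sensor of bacterial endotoxin, was below at -0.57 (adjusted p = 0.00221), and AIM2, a sensor of cytosolic DNA, was above at 3.03 (adjusted p = 5.83e-07). ZBP1 and RIPK3, upstream of MLKL in necroptosis, were above at 4.20 (5.32 without control library 13) and 3.76, from means of 1.65 ± 0.620 and 1.19 ± 0.743 CPM (SD, n = 3) in the treated knockout. CASP8, which starts the extrinsic pathway, and XIAP, a caspase inhibitor, stood at the control level (0.06 and -0.03).

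Of 24 neutrophil chemokines and NF-κB genes, 4 were above the control, 7 below, 2 at its level and 11 undecided. TNFAIP3, the feedback inhibitor A20, measured 424, 432 and 591 CPM in HT1376 CT and 53.2, 104 and 70.0 CPM in treated HT1376 FOXP3 KO. It was far below the control (log2 fold change -2.68, SE 0.22, adjusted p = 1.16e-05), after -3.44 before treatment, and its IFNγ effect of 0.77 was called only with the block (adjusted p = 0.885 without and 9.40e-20 with it). LIF, a cytokine of the IL-6 family, measured 34.6, 34.5 and 58.7 CPM in HT1376 CT and 0.275, 0 and 0.830 CPM in treated HT1376 FOXP3 KO with a log2 fold change of -6.38 (adjusted p = 3.55e-06), after -6.69, or -7.93 without treated library 13. TNF measured 7.15, 8.13 and 16.5 CPM in HT1376 CT and 1.72, 3.11 and 3.19 CPM in treated HT1376 FOXP3 KO with a log2 fold change of -1.99 (adjusted p = 0.00202), after -2.98, an IFNγ effect not called without the block. NFKB2 and RELB, which form the non-canonical NF-κB dimer, were below at -1.14 and -0.91, while NFKB1 stood at the control level (-0.23), as did TNFAIP2 (-0.07). The RELB call was lost without treated library 11 or 13 or control library 13 (adjusted p = 0.0681, 0.0614 and 0.0937). CSF1, the macrophage growth factor, was above at 2.05 (adjusted p = 0.00134) after an undecided -0.23. IL32 measured 9.57, 13.1 and 21.6 CPM in HT1376 CT and 19.1, 29.6 and 39.4 CPM in treated HT1376 FOXP3 KO. Its groups overlapped, and it went from -2.81 to 0.98 (adjusted p = 0.0339), a call lost without treated library 13 or control library 11 or 12 (adjusted p = 0.129, 0.101 and 0.0982). CXCL8, a chemokine for neutrophils, was undecided at 0.14 (interval -0.79 to 1.07), and CXCL1, CXCL2 and CXCL3 were undecided at means under 2 CPM.

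Leukocyte adhesion and CEACAM genes were below the control in 7 of 11 tested and above in 2. ICAM1, the ligand of the integrin LFA-1, measured 5.07, 13.1 and 12.6 CPM in HT1376 CT and 46.1, 74.3 and 54.2 CPM in treated HT1376 FOXP3 KO (log2 fold change 2.50, SE 0.30, adjusted p = 1.58e-04), having been undecided before treatment (-0.86). CEACAM1, an inhibitory ligand of TIM-3 and of itself, measured 222, 286 and 423 CPM in HT1376 CT and 4.68, 3.11 and 9.93 CPM in treated HT1376 FOXP3 KO. It was -5.62 (SE 0.35, adjusted p = 2.69e-06) after -7.24, and its IFNγ effect of 1.55 was called only with the block (adjusted p = 0.760 without and 7.70e-09 with it). Without treated library 13 CEACAM1 stood at -6.28 against the control. CD58, the ligand of CD2 on T cells, measured 19.1, 25.5 and 22.7 CPM in HT1376 CT and 6.75, 11.7 and 9.42 CPM in treated HT1376 FOXP3 KO with a log2 fold change of -1.28 (adjusted p = 0.00103). ALCAM, the ligand of CD6, was -4.08 and CD44, the hyaluronan receptor, -2.43. ALCAM, CD44 and CD58 had nearly the same values before treatment, -3.94, -2.46 and -1.46, and CD44 stood at -3.10 without treated library 13. F11R, a tight junction molecule, was above at 0.72 (adjusted p = 3.61e-04), and ICAM3 and CEACAM6 were undecided at -0.96 and -1.16. ICAM3 was called below without treated library 13 or control library 11 or with the block (adjusted p = 0.0321, 0.0447 and 0.0281). ICAM2 was at 0 in all treated libraries, at least 10.2-fold lower. Of 7 mucins tested, 4 were below and 1, MUC15, was above at 2.81 with 2.75 before treatment. MUC16, the antigen CA-125, measured 1456, 1272 and 1325 CPM in HT1376 CT and 426, 312 and 303 CPM in treated HT1376 FOXP3 KO and went from -2.95 to -1.96 (adjusted p = 3.17e-06). MUC1 measured 54.9, 124 and 96.3 CPM in HT1376 CT and 31.3, 61.2 and 38.5 CPM in treated HT1376 FOXP3 KO. Its groups overlapped, and it went from -2.08 to -1.08 (adjusted p = 0.0176), with an IFNγ effect called only with the block (adjusted p = 0.513 without and 9.71e-21 with it). The MUC1 call against the control was lost without treated library 11 or 13 (adjusted p = 0.0767 and 0.0593) or control library 12 or 13 (adjusted p = 0.0734 and 0.0618).

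Epithelial adhesion and junction genes were below the control in 17 of 30, at its level in 11 and above in 2, and in untreated HT1376 FOXP3 KO 19 of 30 were below. CDH1, which encodes E-cadherin, measured 381, 348 and 404 CPM in HT1376 CT and 236, 296 and 278 CPM in treated HT1376 FOXP3 KO (log2 fold change -0.49, SE 0.12, adjusted p = 0.00902), and had stood at -0.65. EPCAM measured 66.0, 95.7 and 92.2 CPM in HT1376 CT and 16.2, 15.3 and 17.5 CPM in treated HT1376 FOXP3 KO with a log2 fold change of -2.37 (adjusted p = 2.26e-06) after -1.92. CLDN4, a tight junction claudin, was -1.96 after -1.98, and DSP, a desmosomal plaque protein, was above at 1.10 after 1.07. OVOL2, a repressor of mesenchymal genes, was above at 1.20 and CLDN3 below at -5.31 (-7.41 and -4.35 without treated libraries 11 and 13), while the desmosomal genes DSC2 and PKP3 stood at the control level (-0.01 and 0.04). The IFNγ effects of CDH1, EPCAM, CLDN4 and DSP were 0.16, -0.44, 0.02 and 0.02, and that of EPCAM was called only with the block (adjusted p = 0.421 without and 0.0112 with it). GRHL2, a transcription factor of the epithelial state, and ESRP2, an epithelial splicing factor, stood at the control level (0.24 and -0.09). Of 6 tested transcription factors of epithelial to mesenchymal transition, SNAI1 was below at -2.06 (adjusted p = 0.0106), TCF4 above at 1.75, SNAI2 at the control level and 3 undecided. ZEB1 measured 0.923, 0.781 and 0.669 CPM in HT1376 CT and 0.413, 0.334 and 0.128 CPM in treated HT1376 FOXP3 KO. It was undecided (log2 fold change -1.53, SE 0.64, adjusted p = 0.0905). Of 21 mesenchymal genes tested, 10 were above, 9 below and 2 undecided. DCN and LUM, small proteoglycans of connective tissue, measured 107, 98.7 and 141 and 47.3, 40.0 and 71.3 CPM in the treated knockout against means of 0.999 ± 0.509 and 0.198 ± 0.0321 CPM (SD, n = 3) in the control. COL1A2 was above at 3.77 and COL1A1, its partner chain in type I collagen, below at -2.14. TNC, a matrix glycoprotein, measured 442, 528 and 365 CPM in HT1376 CT and 1.38, 4.34 and 23.1 CPM in treated HT1376 FOXP3 KO with a log2 fold change of -5.42 (adjusted p = 2.75e-04). DCN, LUM, COL1A2, COL1A1 and TNC had similar values before treatment, 6.88, 8.65, 3.86, -1.87 and -5.33. Without treated library 13 TNC stood at -7.38. THY1, a surface glycoprotein of fibroblasts, was below at -6.30 (adjusted p = 2.38e-04; -7.23 without treated library 13), and S100A4 was below at -1.31. VIM and CDH2 had too few counts to test.

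Of 15 tested luminal urothelial genes, 4 were above, 3 below, 5 at the control level and 3 undecided. PPARG, a regulator of luminal differentiation, measured 22.8, 17.9 and 19.1 CPM in HT1376 CT and 43.0, 59.1 and 52.7 CPM in treated HT1376 FOXP3 KO with a log2 fold change of 1.37 (adjusted p = 8.36e-05). GATA3, another luminal regulator, was below at -0.69 (adjusted p = 0.00180). CYP2J2, a fatty acid epoxygenase, was above at 6.25 (adjusted p = 7.10e-05; 5.39 without treated library 12) and UPK3B, a uroplakin, below at -3.46 (adjusted p = 0.00292; -4.78 without treated library 13). KRT8, KRT18 and KRT19 stood at the control level, KRT19 being called below without treated library 12 (adjusted p = 0.0430) and KRT18 with the block (adjusted p = 0.00666). Of 28 tested basal and squamous genes, 9 were above, 11 below, 1 at the control level and 7 undecided. SPRR1B, SPRR2A and SPRR3, precursors of the cornified envelope, were below at -6.42, -6.87 and -5.80, and can share reads with near copies (without treated library 13 they stood at -7.27, -7.81 and -6.40). KRT1, a keratin of suprabasal epidermis, measured 2.71, 0.156 and 2.33 CPM in HT1376 CT and 70.0, 60.2 and 117 CPM in treated HT1376 FOXP3 KO with a log2 fold change of 5.45 (adjusted p = 1.65e-05). The values of PPARG, GATA3 and KRT1 before treatment were 1.45, -0.68 and 5.38. IFNγ effects in the knockout line ran from -0.85 (KRT20) to 0.20 (CYP2J2) over the luminal and from -0.77 (S100A7) to 0.60 (KRT10) over the basal genes. With the block 9 of the 28 basal genes were called for an IFNγ effect, 3 higher and 6 lower. Over all 24131 genes, 947 were higher and 387 lower with the block. Of 7 tested neuroendocrine markers, SCG2 was below at -3.64 (adjusted p = 0.00105), SYP stood at the control level and 5 were undecided.

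TGF-β pathway genes were above the control in 11 of 24, below in 8, at its level in 2 and undecided in 3. Their IFNγ effects in the knockout line ran from -0.77 (BMP2) to 2.38 (BMP4). None of these effects was called, with or without the block. TGFBR2, the type II receptor, measured 1.21, 6.64 and 15.3 CPM in HT1376 CT and 0.275, 0 and 0.160 CPM in treated HT1376 FOXP3 KO with a log2 fold change of -5.54 (adjusted p = 0.00134), or -4.53 without control library 13. ID1, ID2 and ID3, targets of BMP signalling, were above at 2.80, 3.56 and 2.20. INHBA, a subunit of activin, was below at -4.21 (adjusted p = 7.80e-05), or -4.91 without treated library 12. SMAD6, an inhibitor of BMP signalling, was above at 3.86 (adjusted p = 4.47e-05), and SMAD3 and SKIL stood at the control level (-0.12 and 0.05). Of 32 cell cycle genes, 2 were above, 16 below and 14 at the control level. CCND1, which encodes cyclin D1, measured 601, 410.5 and 687 CPM in HT1376 CT and 103, 81.1 and 119.6 CPM in treated HT1376 FOXP3 KO and went from -3.29 to -2.48 (adjusted p = 7.17e-06 against the control), an IFNγ effect not called without the block. CDK6, its partner kinase, was below at -1.92 after -2.08, and MKI67, the proliferation marker Ki-67, stood at the control level (-0.16, interval -0.39 to 0.06), as did TOP2A and CDK4 (0.05 and -0.04). CDK2 was above at 0.63 (adjusted p = 0.00116). Of 15 housekeeping genes, 11 stood at the control level, among them TBP, RPL13A and GAPDH (0.02, -0.01 and 0.43, GAPDH being called above with the block, adjusted p = 0.0271), 1 was undecided, and 3 were below, among them ACTB and YWHAZ at -0.82 and -1.33. Of 11 tested endothelial growth factor genes, 2 were above, 4 below, 1 at the control level (VEGFB, 0.01) and 4 undecided. VEGFC, a lymphatic growth factor, measured 25.0, 22.3 and 25.9 CPM in HT1376 CT and 0.0688, 0.111 and 0.160 CPM in treated HT1376 FOXP3 KO with a log2 fold change of -7.53 (adjusted p = 4.32e-08). NRP1, a coreceptor of VEGF and semaphorins, was at 0 in all treated libraries, at least 19.2-fold lower.

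The largest increases among genes with more than 3 counts in a library of each group were those of FLT1, SIGLEC6, GBP5, PRLR, FGD5, TP53I11, MCC, HLA-DRA, ADAMTS15 and GBP2. FLT1, a VEGF receptor, measured 0.404, 0.156 and 0.214 CPM in HT1376 CT and 152, 658 and 90.6 CPM in treated HT1376 FOXP3 KO. Library 12 was far above the others, and the log2 fold change was 10.17 (SE 1.19, adjusted p = 1.85e-05), or 8.91 without that library. SIGLEC6, a sialic acid receptor, measured 0.750, 0.938 and 0.937 CPM in HT1376 CT and 627, 1296 and 528 CPM in treated HT1376 FOXP3 KO with a log2 fold change of 9.84 (adjusted p = 8.98e-08). PRLR, the prolactin receptor, measured 0.461, 0 and 0.375 CPM in HT1376 CT and 316, 325 and 155 CPM in treated HT1376 FOXP3 KO with a log2 fold change of 9.66 (adjusted p = 2.07e-07). Of these 10, GBP5, HLA-DRA and GBP2 were called for an IFNγ effect. The other 7 stood between 9.15 and 9.98 before treatment and had IFNγ effects between -0.24 and 0.20. With the block, and not without it, FLT1, SIGLEC6 and ADAMTS15 were called (adjusted p = 0.0325, 3.55e-04 and 0.00252). FGD5, TP53I11, MCC and ADAMTS15 ended at 9.64, 9.49, 9.25 and 9.09. Without control library 13, FGD5, TP53I11 and MCC stood at 10.60, 10.70 and 9.88.

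The largest decreases were those of ZPLD1, SHISA2, BLK, SEMA3A, ARL14EPL, FAM167A, HMGA2, DOCK10, FLRT2 and ZNF365. ZPLD1 measured 316, 421 and 352 CPM in HT1376 CT and 0.826, 0.334 and 0.255 CPM in treated HT1376 FOXP3 KO (log2 fold change -9.69, SE 0.35, adjusted p = 1.71e-08). HMGA2, a chromatin protein of embryonic tissue, measured 208, 259.8 and 259.6 CPM in HT1376 CT and 0.0688, 1.22 and 0.766 CPM in treated HT1376 FOXP3 KO (log2 fold change -8.52, SE 0.41, adjusted p = 1.28e-07). SEMA3A, a semaphorin that guides axons, measured 267, 205 and 218 CPM in HT1376 CT and 0.688, 0.667 and 0.287 CPM in treated HT1376 FOXP3 KO (log2 fold change -8.91, SE 0.30, adjusted p = 1.24e-08). All 10 were below the control before treatment, and the IFNγ effects of the 9 that could be tested ran from -1.41 for ARL14EPL to 2.29 for SHISA2 (BLK was too low). None of these effects was called, with or without the block, and they rest on few counts. The values after treatment ran from -9.69 for ZPLD1 to -7.93 for ZNF365. SHISA2, BLK, ARL14EPL, FAM167A, DOCK10 and FLRT2 were at -9.56, -9.11, -8.90, -8.78, -8.32 and -8.13. Single treated libraries moved some of these folds. Without library 13 ARL14EPL, BLK and ZNF365 stood at -9.91, -10.31 and -9.38, without library 12 SHISA2 at -10.43 and without library 11 ZPLD1 at -10.30.

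Among genes with at most 3 counts in every library of a group, ATOH8, a developmental transcription factor, had 0 counts in the control and 608, 319 and 1094 in the treated knockout, at least 230.2-fold higher. CAPN6 had 0, 0 and 3 counts in the control and 2227, 2434 and 3696 in the treated knockout, a depth-scaled ratio of 3429 with an exact counting interval of 1173 to 16631. TRPA1, an irritant-sensing ion channel, had 2, 0 and 2 and 795, 440 and 1345 counts (ratio 794, 309.7 to 2916), and ALDH1A1, a retinal dehydrogenase, 2, 3 and 1 and 806, 480 and 1020 counts (ratio 473, 217 to 1290.5). GBP1P1, the GBP1 pseudogene, had 0, 0 and 1 and 827, 470 and 1370 counts and was the member of this set called for an IFNγ effect without the block (8.68). With it ALDH1A1 was also called (adjusted p = 1.53e-07). In the other direction, ATP8A2 had 1315, 819 and 2039 counts in the control and 2, 2 and 2 in the treated knockout. DNAH5 had 740, 520 and 1523 and 1, 2 and 2, DPP6 314, 532 and 1318 and 0, 1 and 1, and CST1 182, 490 and 1404 and 0, 1 and 0. These 4 were below the control before treatment as well, at -9.98, -7.66, -8.57 and -12.16. The counting intervals cover counting error only.

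The labelled cell type was checked against markers of epithelial and of other cells. The epithelial markers summed to 5156 to 5751 CPM in HT1376 CT and 4460 to 5406 CPM in treated HT1376 FOXP3 KO, with 1 of 7 higher and 3 lower. Of 8 T cell markers, CD3G, CD2 and CD8A were at 0 everywhere, and the sum was 0.807 to 1.56 CPM in the control and 0 to 0.160 CPM in the treated knockout. B cell markers summed to 0.115 to 0.547 CPM and to 0 CPM, and endothelial markers to 1.66 to 2.42 CPM and 0.334 to 0.671 CPM. Immune and endothelial lineage markers were therefore near 0 in both groups, apart from the following. Myeloid markers summed to 2.54 to 4.95 CPM in the control and 75.5 to 188 CPM in the treated knockout, with CD68 and AIF1 at 0 everywhere. Of 7, CSF1R and FCGR3A were higher. CSF1R, the receptor of CSF1, made up most of the sum at 1.33, 2.50 and 2.17 CPM in HT1376 CT and 87.9, 185 and 73.2 CPM in treated HT1376 FOXP3 KO (5.84, adjusted p = 2.05e-06), and had stood at 6.27 before IFNγ. FCGR3A, an Fc receptor, had 0 counts in the control and 1, 10 and 4 counts in the treated knockout. Fibroblast markers summed to 28.9 to 36.0 CPM and 155 to 243 CPM, with 4 of 6 higher, among them DCN and LUM, and COL1A1 lower. They moved with the mesenchymal list, which shares genes with them, and their part in its counts was not tested.

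Genes of some chromosomes lay together on 1 side of the control. Over 15583 genes of at least 1 CPM on average, 19.7% were above and 24.0% below the control. On chromosome 12 these shares were 42.5% and 9.83%, and the median log2 difference from the control mean was 0.427, 0.373 and 0.403 in the 3 treated libraries. On chromosome 14, 39.6% were above, with medians of 0.391, 0.398 and 0.374. On chromosome 8, 49.0% were below, with medians of -0.502, -0.504 and -0.476, and on chromosome 15, 41.1% were below, with medians of -0.399, -0.400 and -0.388. The control libraries ranged from -0.052 to 0.067 over all chromosomes. The median log2 fold change was 0.41 on chromosome 12 and -0.52 on chromosome 8 in the untreated knockout, and the median IFNγ effect was -0.01 and 0.01. These shifts were thus present before treatment. Their cause was not tested.

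**Figure D5:**
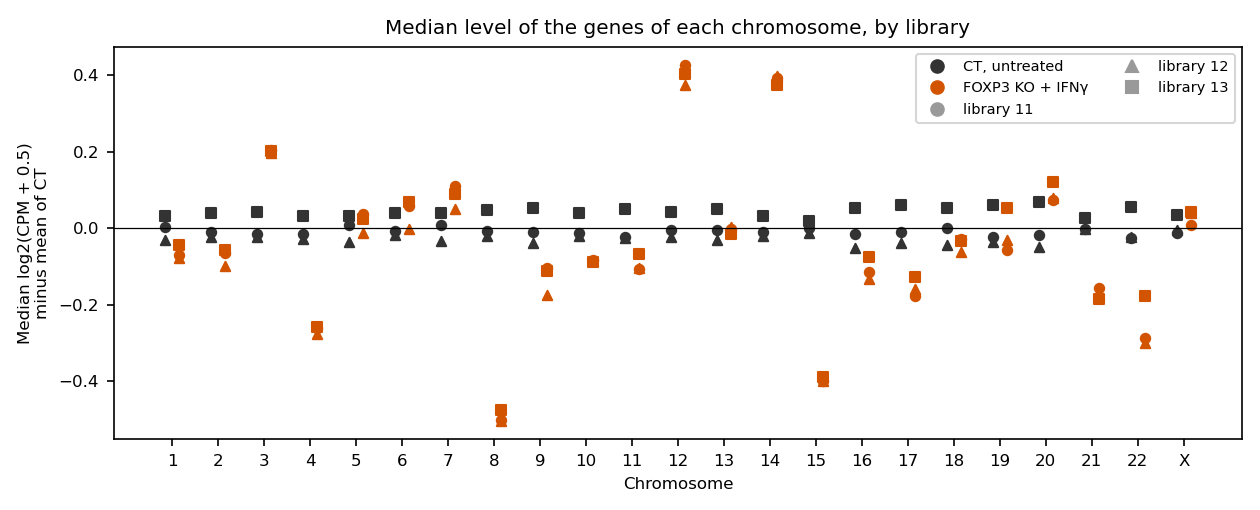
Median over the genes of each chromosome of log2(CPM + 0.5) minus the control mean (y axis) in each library, black for unstimulated HT1376 CT and orange for treated HT1376 FOXP3 KO, with marker shapes for the library number. The 3 treated libraries lie together on every chromosome with a large shift, from -0.504 on chromosome 8 to 0.427 on chromosome 12.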

How the data were processed

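RNA extracted with TRIzol was made into libraries with the KAPA RNA HyperPrep kit with RiboErase and sequenced in pairs on a NovaSeq. According to the methods and the submitters' processing notes, the authors removed reads of Mycoplasma with Kraken, aligned the rest with STAR 2.7.11a to hg38 and counted them per gene with htseq-count, and the deposited values are raw counts per gene. The strand setting of the counting is not given in the sources used here, so overlapping and antisense genes cannot be told apart with certainty, and neither can near-identical copies. Per-column sample names matched the labels. The main comparison used only the columns of the treated knockout and the unstimulated control. Side comparisons also used the columns of the untreated knockout, and an alternative fit used the columns of all libraries of the study.

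Genes with a total of 10 or more counts in the 6 libraries were tested with edgeR 4.0.16 (TMM, quasi-likelihood test, group as the term, Benjamini-Hochberg adjustment over all genes tested) in R 4.3.3. A gene was called above or below the control at an adjusted p under 0.05, at the control level if not called and with a 95% interval (estimate, quasi-likelihood SE and t quantile) within 2-fold, and otherwise undecided. Log2 fold changes are treated knockout minus control. Fold bounds for a group at 0 took 3 counts in each library of the group as the floor, averaged as CPM. All other p-values named here as adjusted come from the same edgeR test. Untreated knockout against control, and treated against untreated knockout, were fitted in the same way, and share the control or the treated libraries with the main comparison. In the second of these, deviations from the group means correlated at 0.197 to 0.291 between same-numbered libraries (24131 genes) and at -0.208 to -0.00180 between others. Over the 15464 genes with at least 100 counts, these ranges were 0.455 to 0.589 and -0.467 to 0.0278. Its values with the replicate number as a block are therefore also given. The pairing comes from these correlations, not from the labels. The smallest adjusted p with the block rest on variance pooled over genes, not on the spread of the single gene.

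The gene lists, members and tests were chosen with earlier results of these data known. The genes named are the 10 largest changes in each direction without overlap between groups, the genes the study names, per list the highest, lowest and most central members, and the 5 with most counts in each direction among genes at 3 counts or less in every library of a group. Members described beyond this rule were chosen after their values were seen, as was the CD274 promoter window, and some genes that the rule takes are not reported here. On simulated counts for this comparison (24610 genes, 200 changed), 62% of changes of 1 and 88% of changes of 2 on the log2 scale were recovered, and 5.66% of calls were false. The simulation gave genes of like level the same spread and had no replicate effect. It changed only genes of at least 1 CPM, and far fewer than were called here. These rates therefore need not hold for the data. Alternatives were DESeq2 1.42.0, its size factors, other filters, bias-adjusted deviance, all 12 libraries in 1 fit, the replicate block, narrower limits, a 99% interval and leaving out each library.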

Additional observations from a re-analysis of the deposited data

How the results depend on the processing

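Under every alternative run, no named gene that was called changed direction between treated HT1376 FOXP3 KO and unstimulated HT1376 CT. Requiring over 2-fold left 2385 genes above and 2733 below, and limits of 1.5-fold left 3503 genes at the control level. Leaving out 1 library gave 2812 to 3960 genes above, 3308 to 4278 below and 5918 to 6441 at the control level, and leaving out the libraries numbered 12 gave 3993, 4349 and 5827. The other settings gave 3670 to 4769 genes above and 4053 to 5473 below, DESeq2 3906 and 4445. Over the named genes and alternatives of this comparison, 4061 values kept their side of the threshold, 90 lost a call and 114 gained one. Same-numbered libraries of HT1376 CT and treated HT1376 FOXP3 KO deviated together weakly over all genes tested (r = 0.0509, 0.133 and 0.0932, others -0.116 to 0.0432) and more over the 16220 genes with at least 100 counts (r = 0.131, 0.291 and 0.194, others -0.259 to 0.114). In both sets of genes each same-numbered correlation was above all others, while the size of the correlations depended on the genes taken. The main test left the number out, and values with the block are given in the report where they change a call. With the replicate block 4202 genes were above and 5155 below, of which 3583 and 4368 were calls without it. Of the genes described at the control level, it called PML, RNF213 and GAPDH above and JAK2, CXCL16, GUK1, CD47, PVR and KRT18 below. Without a filter on low counts, RNF213, GAPDH and PIAS1 were called above and CXCL16 and KRT18 below. In treated against untreated knockout the count was the least stable, at 161 to 206 genes higher without 1 library, 298 without the libraries numbered 12, 331 with DESeq2, 343 without a filter and 947 with the block. IFNγ effects of STAT3, RNF213, XDH, MUC16, GNB4, MOB3C, GUK1, TYMP, IFIT1, ISG20, CXCL11, CX3CL1 and C4A lost their calls without at least 1 of the treated libraries. With a 99% interval PDCD1LG2, STAT3, EIF2AK2, HERC6, RFX5, LAMP3, TRIM25 and PML remained at the control level, while CXCL16, TNFAIP2, SYP, GAPDH and PIAS1 were undecided. With limits of 1.5-fold these 5 and PDCD1LG2, HERC6, LAMP3, PML, LYPD5, GUK1, JAK2, CD47, PVR, SMAD3, KRT18 and KRT19 were undecided. The CD274 call below the control was kept under every alternative run. Depth limits the low genes, since 97.3% of those under 0.1 CPM were undecided. Causes of these differences between settings were not tested.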
